A study of Mus musculus with 13 samples.

Results

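The effect of *Acly* deletion was examined in bone marrow-derived macrophages (BMDMs) after 3 h of LPS, in 6 of the 13 RNA-seq libraries of the series. The labels name 3 of these libraries as control and 3 as AclyM-KO. Both groups came from female C57Bl/6J mice with loxP sites around exon 9 of both *Acly* alleles (Acly fl/fl), and the AclyM-KO mice also carried Cre driven by the promoter of *Lyz2* (LysM), which is active in myeloid cells. Bone marrow cells were grown for 7 days in medium conditioned by L929 fibroblasts and then received LPS, a component of the outer membrane of Gram-negative bacteria, at 100 ng/mL. The age of the mice is not given in the sources used here. Control cells without Cre differ from AclyM-KO cells in the Cre allele as well as in *Acly*, so that these 2 differences cannot be told apart. Nothing in the labels says whether the cultures of a group came from separate animals, and p-values then measure only the spread between these libraries. Unstimulated cells were not analysed here.

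ATP citrate lyase, the product of *Acly*, splits citrate that leaves the mitochondria into oxaloacetate and acetyl-CoA, the building block of fatty acids and sterols and the donor for protein acetylation. LPS binds Toll-like receptor 4, and within the first hours macrophages activate NF-kB and MAP kinases, transcribe immediate-early, cytokine and protease genes, and answer their own interferon-beta with interferon-stimulated genes. The genes of sterol synthesis, sterol regulation and fatty acid synthesis, the cytokines and chemokines, and a set of LPS-induced genes reported by the study were set aside here, and the remaining functions are described.

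Reads were counted per RefSeq transcript, and for each gene symbol the transcript with most counts summed over the 6 libraries was kept. Total counts were 22208814 to 23155302 in the control libraries and 21717016 to 24638561 in the AclyM-KO libraries. Levels are given in CPM, a gene's counts scaled to the library's total over the genes tested with TMM factors, and 1 count stood for 0.0673 to 0.0787 CPM. Values of single libraries are listed in the order of replicates 1, 2 and 3. They depend on transcript length and are compared between libraries, not between genes. A gene is called changed (higher or lower) at an adjusted p-value under 0.05 (edgeR's quasi-likelihood test, Benjamini-Hochberg adjustment) together with a log2 fold change of AclyM-KO over control above 0.75 or below -0.75. These thresholds are those of the study, which tested with DESeq2, run here as an alternative. The first principal component held 42.8% of the variance and separated the genotypes, and the second, with 18.8%, set AclyM-KO replicate 1 apart from AclyM-KO replicate 2.

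Genes that define macrophages were abundant in all libraries. *Adgre1*, which encodes F4/80, had 1350, 1308 and 1275 CPM in the control and 1622, 1516 and 1525 CPM in the AclyM-KO libraries, and *Csf1r*, the receptor for M-CSF, had 1760, 1704 and 1780 CPM and 1821, 1309 and 1558 CPM. Markers of other blood cells were low or at 0: *Ly6g* and *Retnlg* of the 12 neutrophil markers, *Nkg7* among those of lymphocytes, *Mcpt8* and *Fcer1a* among those of mast cells and basophils, and the globin genes held no counts. The summed level of the neutrophil list was 43.5 to 44.4 CPM in control and 56.6 to 65.3 CPM in AclyM-KO libraries, a difference led by *Mmp8*, which is described with the proteases. The 9 dendritic cell markers summed to 131 to 149 CPM and 147 to 173 CPM, most of it *Bst2*, which interferon also induces. Markers of erythroid cells and megakaryocytes summed to 66.2 to 69.8 CPM in control and 76 to 97.6 CPM in AclyM-KO libraries, nearly all of it *Pf4*. Lymphocyte markers summed to 1.22 to 1.6 CPM and 0.962 to 1.75 CPM, those of mast cells and basophils, led by *Hdc*, to 31 to 33.4 CPM and 33.5 to 34.9 CPM, and those of stromal cells to 3.27 to 4.66 CPM and 4.78 to 4.96 CPM. *Kit*, the stem cell factor receptor and one of the mast cell markers, was itself higher in AclyM-KO cells, with 3.27, 3.95 and 4.28 CPM against 6.29, 8.68 and 6.22 CPM (log2 fold change 0.89, and 0.70 without AclyM-KO replicate 2, where its call was lost). In bulk RNA, fewer cells of a type and less RNA per cell cannot be told apart.

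*Acly* itself was examined first. Exon 9, the deleted exon, is shown because its length bears on what the counts can see: it has 137 bases, leaves a remainder of 2 when divided by 3, and makes up 3.1% of a 4426-base transcript with 29 exons. It lies at chr11:100514962-100515098 on the minus strand of GRCm38, within the coding part of the gene, and was read from the GENCODE annotation and transcript set.
*Acly* exon 9: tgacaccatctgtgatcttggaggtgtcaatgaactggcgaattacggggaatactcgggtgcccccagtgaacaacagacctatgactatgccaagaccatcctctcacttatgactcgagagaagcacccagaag

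The count of *Acly* (chromosome 11, 100476353 to 100528000, minus strand) covers all its exons and was 160, 164 and 163 CPM in the control libraries and 57.9, 71 and 64 CPM in the AclyM-KO libraries. Every AclyM-KO library lay far below every control, and *Acly* was still counted in all 3. The counts do not show whether the remaining transcripts hold exon 9. The log2 fold change was -1.34 (SE 0.07, adjusted p = 1.08e-08 by edgeR's quasi-likelihood test). The microRNA gene *Mir7116* lies within *Acly* on the same strand, and its share of the counts is not known.

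*Lyz2* encodes lysozyme and is the gene whose promoter drives Cre. It had 8014, 8094 and 7999 CPM in the control libraries and 4521, 3496 and 4285 CPM in the AclyM-KO libraries, which is 8036 ± 51.1 against 4100 ± 537 (SD, n = 3 each). All 3 AclyM-KO libraries were well below the tight control values, with AclyM-KO replicate 2 the lowest. The log2 fold change of *Lyz2* was -0.97 (SE 0.08, adjusted p = 9.66e-06 by edgeR's quasi-likelihood test), and this decrease moved the summed level of the 10 macrophage markers from 1.57e+04 to 1.59e+04 CPM in control to 1.1e+04 to 1.25e+04 CPM in AclyM-KO libraries. Its paralog *Lyz1*, named here after its values were seen, had 10.2, 10.3 and 8.86 CPM and 9.75, 8.95 and 11.2 CPM, overlapping between the groups (log2 fold change 0.02, SE 0.13). An effect of the Cre allele on *Lyz2* and an effect of *Acly* deletion cannot be told apart in these libraries.

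Of the 24562 genes in the table, 11296 passed the filter on low counts. *Acly* deletion went with higher levels of 143 genes, or 1.27% of those tested, and with lower levels of 51, or 0.451%, which makes 194 changed genes (1.72%). For 190 of them the AclyM-KO libraries all lay beyond the control libraries. Among all genes tested, the groups did not overlap for 1823 genes that were higher (16.1%) and 1675 that were lower (14.8%). Without the threshold on the fold change, 805 genes were higher (7.13%) and 540 lower (4.78%) at an adjusted p-value under 0.05, and 49.8% of all genes tested had a positive fold change. The lists set aside held 37 of the higher and 4 of the lower genes, so that 106 higher and 47 lower genes remained. Many of these were expressed at low levels: both group means lay under 5 CPM for 57 of the 143 higher and 25 of the 51 lower genes.

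**Figure D1:**
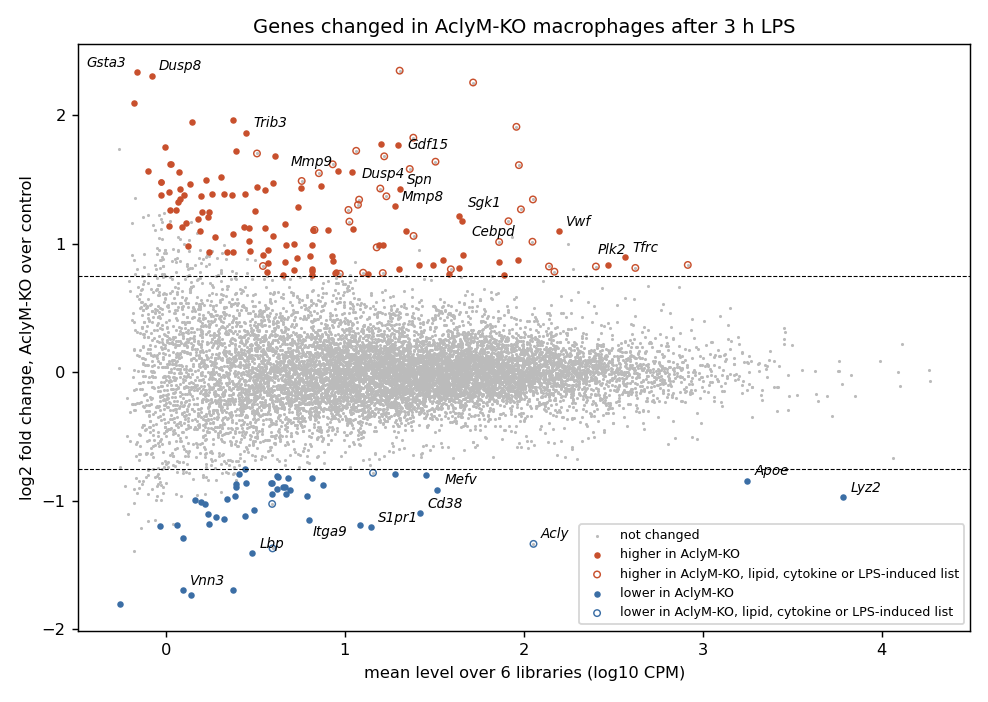
Log2 fold change of AclyM-KO over control against the mean level over the 6 libraries (log10 CPM) for the 11296 genes tested, 1 point per gene. The 143 higher genes (red) and 51 lower genes (blue) lie beyond the dashed lines at 0.75 and -0.75, open circles belong to the lists set aside, and *Lyz2*, *Apoe* and *Acly* are lower genes at high levels.

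AclyM-KO replicate 2 was the library farthest from the controls for 96 of the 143 higher genes (67.1%) and for 25 of the 51 lower genes (49%). AclyM-KO replicate 1 was the farthest for 20 and 14 genes, and AclyM-KO replicate 3 for 27 and 12. Calls were therefore also made with each library left out in turn, and 99 of the 194 genes kept their call in all 6 of these fits, 81 higher and 18 lower. Of the genes outside the lists set aside, 52 higher and 15 lower ones did. Where a gene described below lost its call in such a fit, the library is given.

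To see which functions the remaining genes serve, 31 lists of genes were compared, with 710 of their 762 genes tested. Of these 710 genes, 27 were higher and 6 lower. The largest medians belonged to ATF4 targets and amino acid metabolism (0.44 on the log2 scale over 23 genes tested), immediate-early and AP-1 factors (0.23 over 25), clock and glucocorticoid-induced genes (0.22 over 16), coagulation and vascular factors (0.21 over 17) and MAP kinase phosphatases and regulators (0.21 over 18). The lowest belonged to the interferon-inducible GTPases (-0.26 over 18), complement components and receptors (-0.13 over 17) and LXR targets and sterol efflux (-0.10 over 18). The median over all genes tested was -0.0011. Leaving out 1 library also added calls in some lists. Without AclyM-KO replicate 1, 2 more TNF receptor superfamily genes and 1 more gene each of the G protein-coupled receptors, the integrins and the phagocytic receptors were higher, and 1 coagulation and vascular factor was lower. Without AclyM-KO replicate 3, 1 more integrin or adhesion gene and 1 more clock or glucocorticoid-induced gene were higher, and without control replicate 1, 1 more gene each of the TNF receptor superfamily and the G protein-coupled receptors was.

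**Figure D2:**
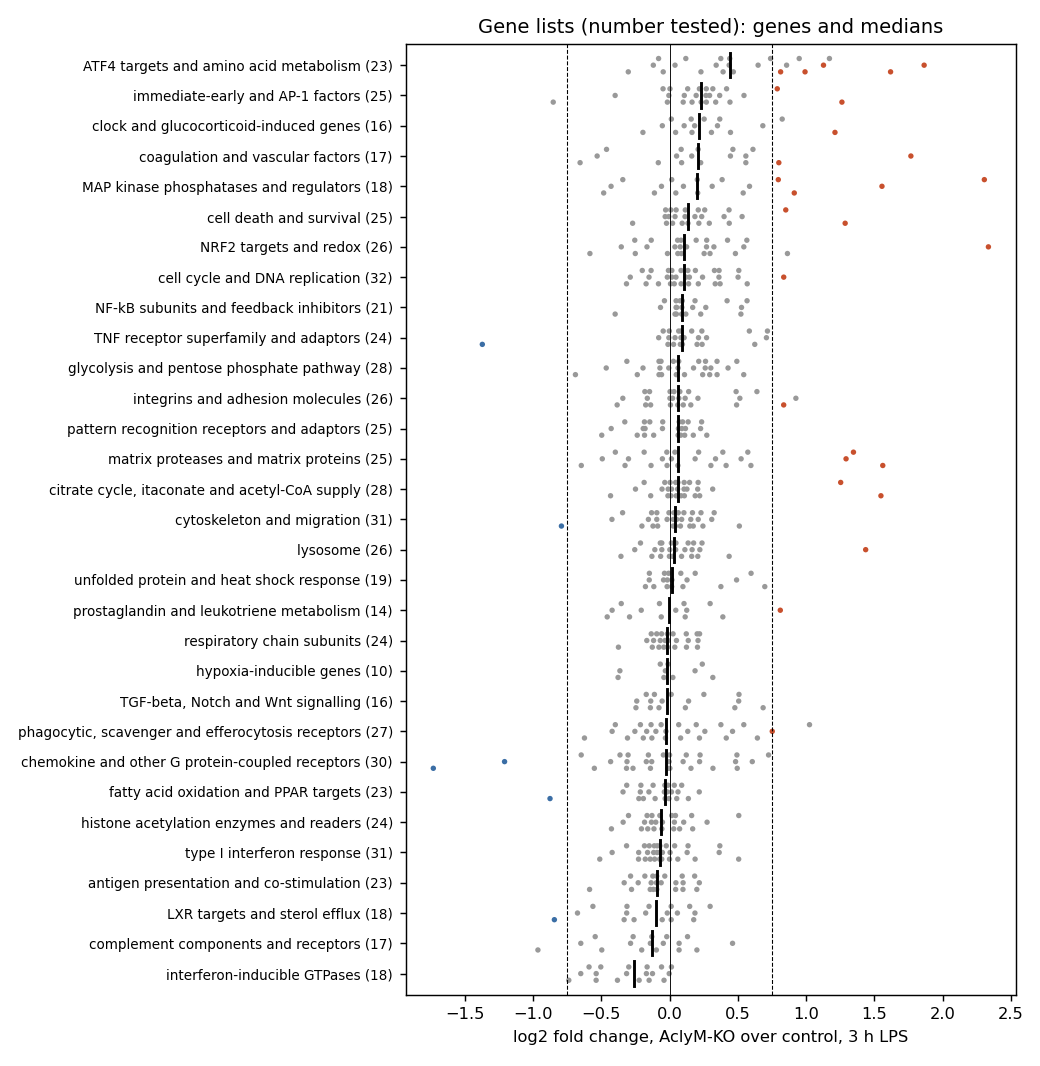
Log2 fold change of AclyM-KO over control (horizontal axis) for the members of 31 gene lists, ordered by their median (black bar), with the number of genes tested in parentheses and 1 point per gene. Changed genes are red (higher) or blue (lower), dashed lines mark 0.75 and -0.75, and the medians run from -0.26 for the interferon-inducible GTPases to 0.44 for ATF4 targets and amino acid metabolism.

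Dual-specificity phosphatases switch MAP kinases off again after LPS. Of the 18 MAP kinase phosphatases and regulators tested, *Dusp1*, *Dusp4*, *Dusp6* and *Dusp8* were higher in AclyM-KO macrophages and none was lower. At an adjusted p-value under 0.05 alone, 7 of the 18 were higher and 1, *Tnip2*, was lower. Of all genes tested, 1.27% were changed and higher, and at the adjusted p-value alone 7.13% were higher and 4.78% lower. The 7 became 3 without any 1 control library and 4 without AclyM-KO replicate 3, and no gene was lower without control replicate 2 or AclyM-KO replicate 3.

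*Dusp1* encodes the nuclear phosphatase that acts on p38 and JNK. It had 31.6, 30.9 and 33.1 CPM in the control libraries and 49.7, 72.4 and 57.4 CPM in the AclyM-KO libraries, with no overlap and AclyM-KO replicate 2 the highest. Its log2 fold change was 0.91 (SE 0.12, adjusted p = 0.000239 by edgeR's quasi-likelihood test). *Dusp4*, another nuclear phosphatase, had 5.86, 6.04 and 4.89 CPM against 15, 16.8 and 17.5 CPM. Its libraries were close together within each group, and the log2 fold change was 1.56 (SE 0.13, adjusted p = 8.95e-07 from the same test). *Dusp8*, which acts on JNK and p38, rose from 0.228, 0.144 and 0.458 CPM, or 3, 2 and 6 counts, to 1.57, 1.14 and 1.48 CPM, or 20, 17 and 20 counts. The groups were apart, but at this depth its log2 fold change of 2.30 carried an SE of 0.46 (adjusted p = 0.00338). In the GENCODE annotation, transcripts of *Dusp1* overlap *Ergic1* on the other strand.

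*Dusp6*, the cytoplasmic phosphatase of ERK, had 4.56, 3.74 and 3.21 CPM in control and 7.24, 8.41 and 4.29 CPM in AclyM-KO libraries. AclyM-KO replicate 3 lay among the controls, and its call (log2 fold change 0.80, adjusted p = 0.0349) was lost without any 1 of the other 5 libraries, at 0.58 to 0.93. *Tnip2* had 46.6, 53.6 and 50 CPM against 41.5, 39 and 38.2 CPM (log2 fold change -0.34, adjusted p = 0.0082 by edgeR's quasi-likelihood test). *Map3k8*, which encodes a MAP3 kinase, had 93.1, 93.8 and 89.4 CPM against 106, 110 and 103 CPM (log2 fold change 0.20, adjusted p = 0.0365 from the same test). Both differences were within the fold threshold.

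The promoters of *Dusp1* and *Dusp8* are shown because, of the 16 list members with a promoter in the RefSeq set, they were the 2 that held TGACGTCA, the palindromic cyclic AMP response element that CREB and ATF family factors bind. The motif, the same on both strands, was found in 1.79% of all 32851 promoters of 300 bases (250 before and 50 after the start) and in 328 of 9040 tested genes with a promoter (3.63%). Capitals mark it. The first base of the match stands 143 bases before the start of *Dusp1*, and 107 and 63 bases before that of *Dusp8*. The positions are chr17:26508423-26508722 and chr7:142095235-142095534, both on the minus strand of GRCm38.p6. *Dusp4* and *Map3k8* had no promoter in the set and were not searched. A match describes the sequence and shows no binding.
*Dusp1* promoter: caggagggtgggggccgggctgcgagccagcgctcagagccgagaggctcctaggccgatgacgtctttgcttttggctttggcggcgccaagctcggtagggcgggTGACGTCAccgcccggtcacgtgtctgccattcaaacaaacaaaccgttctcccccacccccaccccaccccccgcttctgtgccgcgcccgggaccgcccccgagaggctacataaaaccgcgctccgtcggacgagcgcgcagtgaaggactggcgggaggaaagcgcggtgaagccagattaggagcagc
*Dusp8* promoter: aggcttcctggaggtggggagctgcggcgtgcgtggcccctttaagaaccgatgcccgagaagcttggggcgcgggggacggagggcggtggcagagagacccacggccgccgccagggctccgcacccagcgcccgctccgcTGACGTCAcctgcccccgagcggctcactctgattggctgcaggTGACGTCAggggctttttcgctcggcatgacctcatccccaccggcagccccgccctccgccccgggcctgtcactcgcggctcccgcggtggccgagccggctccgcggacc

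Immediate-early genes are the first that MAP kinases induce. Of the 25 tested, 20 had a positive fold change, 9 were higher at an adjusted p-value under 0.05 and 2, *Klf4* and *Mycl* (one of the LPS-induced genes set aside), were changed. Among all genes tested, 49.8% had a positive fold change, 7.13% were higher at that adjusted p-value and 1.27% were changed and higher. *Klf4*, a zinc finger factor of macrophage activation, had 5.4, 4.24 and 4.89 CPM against 7.79, 9.96 and 7.25 CPM (log2 fold change 0.79, SE 0.17, adjusted p = 0.00561 by edgeR's quasi-likelihood test). Its call was lost without AclyM-KO replicate 2 (0.64) and without control replicate 2 (0.70). Smaller differences that passed the adjusted p-value alone were those of the AP-1 subunit genes *Jun* (log2 fold change 0.34), *Jund* (0.42) and *Maff* (0.44), and of *Egr2* (0.55), whereas *Batf* was on the lower side (-0.40, adjusted p = 0.0308). No gene of the list was lower without any 1 control library or without AclyM-KO replicate 3.

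NF-kB subunits and their feedback inhibitors held no changed gene among 21 tested. At an adjusted p-value under 0.05, 8 were higher, led by *Nfkbid* (0.57), *Nfkbiz* (0.53) and *Socs1* (0.52), and *Tnip3*, an inhibitor of NF-kB signalling, was lower (-0.40). The shares over all genes tested were 7.13% higher and 4.78% lower. Without control replicate 1 or 2, 3 genes of the list were higher, and without control replicate 3 or AclyM-KO replicate 3, 5 were. *Nfkbiz*, which encodes an inducible nuclear coactivator of secondary response genes such as *Il6*, had 505, 480 and 487 CPM in control and 744, 678 and 698 CPM in AclyM-KO libraries, without overlap (SE 0.05, adjusted p = 5.56e-06 by edgeR's quasi-likelihood test).

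ATF4 is the transcription factor of the integrated stress response, which amino acid shortage and other stresses induce, and its targets include genes of amino acid uptake, serine synthesis and one-carbon metabolism. Of the 23 genes tested in this list, *Trib3*, *Aldh1l2*, *Phgdh*, *Sesn2* and *Slc38a2* were higher, none was lower, and 19 had a positive fold change. At an adjusted p-value under 0.05 alone, 10 were higher and 1, *Nupr1*, was lower, against 7.13% and 4.78% of all genes tested. The share of all genes that were changed and higher was 1.27%, and 49.8% of all genes tested had a positive fold change. Without AclyM-KO replicate 1, 16 genes of the list were higher, and without control replicate 1 or 3 or AclyM-KO replicate 3, 7 were. None of the list was lower without control replicate 3 or AclyM-KO replicate 3.

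*Trib3* encodes a pseudokinase that ATF4 induces. It had 1.37, 1.44 and 0.84 CPM in the control libraries and 3.3, 6.25 and 3.7 CPM in the AclyM-KO libraries. The groups were apart, with AclyM-KO replicate 2 well above the rest, and the log2 fold change was 1.86 (SE 0.30, adjusted p = 0.000672 by edgeR's quasi-likelihood test). *Sesn2*, which encodes a leucine sensor that restrains mTORC1, had 4.03, 5.54 and 3.59 CPM against 7, 10.5 and 8.66 CPM (log2 fold change 0.99, SE 0.19, adjusted p = 0.00272). *Slc38a2*, a transporter of neutral amino acids, rose from 29, 32.4 and 33.2 CPM to 51.3, 60.5 and 54.4 CPM (log2 fold change 0.81, SE 0.08, adjusted p = 7.25e-06). Without AclyM-KO replicate 2 its fold change was 0.74, under the threshold.

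The other 2 changed genes of this list rested on few counts. *Aldh1l2*, a mitochondrial enzyme of folate metabolism, had 0.761, 0.288 and 0.535 CPM against 1.34, 1.82 and 1.7 CPM (log2 fold change 1.62, SE 0.39), and its call was lost without control replicate 2 (adjusted p = 0.0704), without control replicate 3 (adjusted p = 0.0553) and without AclyM-KO replicate 3 (adjusted p = 0.0504). *Phgdh*, the first enzyme of serine synthesis, had 0.989, 2.52 and 1.68 CPM against 2.36, 5.31 and 3.63 CPM, which overlapped (log2 fold change 1.13, adjusted p = 0.0452). It lost its call without control replicate 1 (0.85) or 3 (1.10) or AclyM-KO replicate 2 (0.79) or 3 (1.16).

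*Atf4* itself had 124, 136 and 136 CPM against 160, 176 and 166 CPM (log2 fold change 0.34, SE 0.06, adjusted p = 0.00155). *Asns*, *Chac1* and *Slc7a5*, classical ATF4 targets, had log2 fold changes of 0.95, 1.17 and 0.86 with adjusted p-values of 0.136, 0.173 and 0.123 and were not changed. Their spread lay within the AclyM-KO group: *Asns* had 23.2, 48.8 and 30.8 CPM there, against 17.4, 20.4 and 15.7 CPM in control. The number of changed genes in the list depended on the libraries. Without AclyM-KO replicate 1, 10 of its genes were changed and its median was 0.57, and without AclyM-KO replicate 2, 3 were changed and its median was 0.38. The same number, 3, was changed without AclyM-KO replicate 3 and without control replicate 3.

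The promoter of *Trib3* is shown because it held a match to TGATGNAA, the C/EBP-ATF response element that ATF4 binds with C/EBP proteins, and *Trib3* was the changed gene of the list that did. The motif, or its reverse complement TTNCATCA, was found in 3.97% of all promoters and in 258 of 9040 tested genes with a promoter (2.85%). Of the 16 list members with a promoter, *Trib3*, *Asns*, *Chac1* and *Nupr1* held it. *Aldh1l2*, *Slc7a5*, *Slc7a2*, *Slc1a5*, *Eif4ebp1*, *Arg2* and *Nos2* had no promoter in the set and were not searched. The match, in capitals, is on the opposite strand and begins 15 bases into the transcript. The promoter lies at chr2:152344011-152344310 on the minus strand of GRCm38.p6.
*Trib3* promoter: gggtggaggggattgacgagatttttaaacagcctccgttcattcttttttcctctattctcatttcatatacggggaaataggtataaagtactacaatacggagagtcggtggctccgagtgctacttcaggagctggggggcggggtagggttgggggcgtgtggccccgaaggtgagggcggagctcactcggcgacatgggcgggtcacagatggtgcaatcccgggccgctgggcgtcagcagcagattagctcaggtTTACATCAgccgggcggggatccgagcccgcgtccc

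*Gdf15*, a secreted stress hormone of the TGF-beta family, was among the largest increases and belongs to the list of coagulation and vascular factors. It had 8.97, 9.28 and 8.79 CPM in the control libraries and 33.8, 22.7 and 36 CPM in the AclyM-KO libraries. AclyM-KO replicate 2 was the lowest of its group, and all 3 libraries lay far above the controls (log2 fold change 1.77, SE 0.16, adjusted p = 1.76e-05 by edgeR's quasi-likelihood test). *Pdgfb*, the other changed gene of the 17 tested, had 5.86, 5.25 and 3.13 CPM against 10.5, 7.67 and 6.74 CPM (log2 fold change 0.80, adjusted p = 0.0278), and its call was lost without control replicates 2 (adjusted p = 0.078) or 3 (0.58) or AclyM-KO replicate 1 (0.60).

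**Figure D3:**
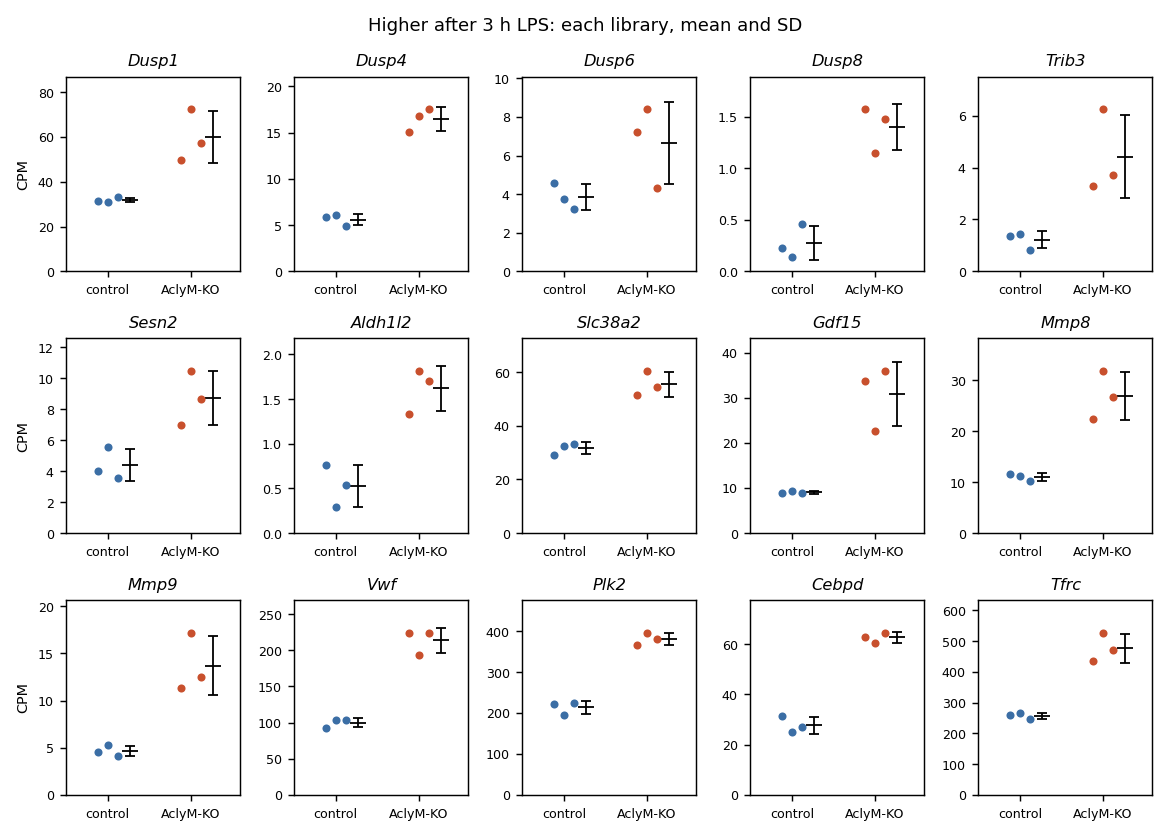
CPM of 15 genes that were higher in AclyM-KO macrophages after 3 h LPS, with 1 point per library (control blue, AclyM-KO red) and the mean and SD of each group (black). In every panel except that of *Dusp6* the 3 AclyM-KO points lie above the 3 control points. Many of these genes were chosen by a rule that required this separation, which is therefore no result. AclyM-KO replicate 2 is the highest of its group for *Dusp1*, *Dusp6*, *Trib3*, *Sesn2*, *Aldh1l2*, *Slc38a2*, *Mmp8*, *Mmp9*, *Plk2* and *Tfrc*. It is the lowest of its group for *Dusp8*, *Gdf15*, *Vwf* and *Cebpd*.

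In the list of matrix proteases and matrix proteins, *Mmp8*, *Mmp9* and *Mmp2* were higher and no gene lower of 25 tested, where 1.27% of all genes were higher. At an adjusted p-value under 0.05 alone, 6 were higher and 3 lower, against 7.13% and 4.78% of all genes tested. The 6 and 3 became 3 and 1 without control replicate 2, while without control replicate 1 the lower ones became 1. *Mmp9*, gelatinase B, had 4.56, 5.25 and 4.12 CPM in the control libraries and 11.3, 17.2 and 12.5 CPM in the AclyM-KO libraries (log2 fold change 1.56, SE 0.17, adjusted p = 1.76e-05 by edgeR's quasi-likelihood test). *Mmp8*, a collagenase that neutrophils store, had 11.6, 11.3 and 10.2 CPM against 22.4, 31.9 and 26.7 CPM (log2 fold change 1.29, SE 0.12, adjusted p = 4.67e-06). For both genes all AclyM-KO libraries were above all controls, with AclyM-KO replicate 2 the highest.

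Among the other neutrophil markers, *Lcn2* had 12.3, 11.5 and 12.2 CPM against 11.5, 12.4 and 14.7 CPM, *S100a8* 3.96, 4.24 and 3.44 CPM against 3.93, 2.42 and 4.44 CPM, and *Ngp* 6.77, 7.41 and 8.25 CPM against 6.06, 6.39 and 7.7 CPM. *S100a9* had 6.01, 7.26 and 8.1 CPM against 9.2, 7.33 and 8.22 CPM, and *Ltf* had 2.21, 1.73 and 1.91 CPM against 2.91, 1.28 and 2.74 CPM. The groups overlapped for these 5 genes, 3 of which had a positive fold change, and *Mmp8* was the changed gene among the 6 neutrophil markers tested. *Mmp2*, gelatinase A, had 0.913, 0.431 and 0.688 CPM against 1.89, 1.95 and 1.33 CPM (log2 fold change 1.35, adjusted p = 0.0218) and lost its call without control replicate 2 (adjusted p = 0.11) or 3 (adjusted p = 0.084). The median of the list, 0.06, was near that of all genes.

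*Ctsk*, which encodes cathepsin K, the collagen-degrading protease of osteoclasts, was the changed gene among 26 lysosomal genes tested. It had 3.73, 2.59 and 2.98 CPM in control and 7.32, 10.1 and 7.62 CPM in AclyM-KO libraries (log2 fold change 1.44, SE 0.19, adjusted p = 9.79e-05 by edgeR's quasi-likelihood test). The list as a whole was balanced, with 16 positive and 10 negative fold changes and a median of 0.03.

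*Vwf*, which encodes von Willebrand factor, a glycoprotein known from endothelium and platelets, was 1 of the 3 increases with the lowest p-value outside the lists set aside. It had 92.6, 103 and 103 CPM in the control libraries and 224, 193 and 223 CPM in the AclyM-KO libraries, tight in both groups (log2 fold change 1.10, SE 0.07, adjusted p = 7.04e-08 by edgeR's quasi-likelihood test). *Cdh5*, an endothelial marker, had 1.06, 1.65 and 2.29 CPM against 1.57, 1.68 and 1.92 CPM, and the platelet gene *Itga2b* had at most 2 counts in any library. The platelet gene *Pf4*, in contrast, had 66.1, 69.2 and 69.1 CPM against 75.8, 96.9 and 84 CPM, without overlap. It was higher at an adjusted p-value under 0.05, with a log2 fold change of 0.33, within the fold threshold. *Itgb3*, the beta subunit of the vitronectin receptor, was the changed gene among 26 integrins and adhesion molecules tested, with 20.2, 26.4 and 20.9 CPM against 35.4, 49.6 and 35.2 CPM (log2 fold change 0.84, SE 0.15, adjusted p = 0.0042). Without AclyM-KO replicate 2 its fold change was 0.65.

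The other increases with the lowest p-values were *Cebpd* and *Plk2*. *Cebpd* encodes C/EBP-delta, a transcription factor that amplifies the LPS response, and had 31.6, 24.9 and 27 CPM in control and 63, 60.5 and 64.7 CPM in AclyM-KO libraries (log2 fold change 1.18, SE 0.09, adjusted p = 1.97e-07 by edgeR's quasi-likelihood test). *Plk2*, a polo-like kinase of early cell cycle and stress signalling, had 221, 196 and 223 CPM against 365, 396 and 381 CPM (log2 fold change 0.84, SE 0.06, adjusted p = 1.97e-07). It was the changed gene among 32 genes of cell cycle and DNA replication tested, whose median was 0.10.

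*Sgk1*, a kinase gene that glucocorticoids and cell stress induce, was the changed gene among 16 clock and glucocorticoid-induced genes. Of these 16, 14 had a positive fold change, against 49.8% of all genes tested, of which 1.27% were changed and higher. At an adjusted p-value under 0.05, 3 of the 16 were higher and none lower, against 7.13% and 4.78%. The 3 became 2 without any 1 control or AclyM-KO replicate 1 or 3. *Sgk1* had 25.9, 22.8 and 30.5 CPM in the control libraries and 52.8, 72.2 and 57.7 CPM in the AclyM-KO libraries (log2 fold change 1.21, SE 0.13, adjusted p = 7.98e-05 by edgeR's quasi-likelihood test). *Ets2*, a transcription factor gene downstream of ERK that was named after its values were seen, had 67.6, 61.9 and 67.2 CPM against 128, 110 and 122 CPM (log2 fold change 0.87, SE 0.07, adjusted p = 5.03e-07). Neither gene overlapped between the groups.

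The list of cell death and survival held genes of opposite roles. Of the 25 cell death and survival genes tested, 20 had a positive fold change and 2, *Phlda1* and *Bcl2*, were changed, both higher. At an adjusted p-value under 0.05, 7 were higher and 1 lower, against 7.13% and 4.78% of all genes tested. Of all genes tested, 49.8% had a positive fold change and 1.27% were changed and higher. The 7 became 2 without control replicate 1 or 3 or AclyM-KO replicate 3, and none was lower without control replicate 3. *Phlda1*, a pleckstrin homology-like protein linked to apoptosis, had 2.28, 3.52 and 3.74 CPM against 5.98, 9.89 and 7.33 CPM (log2 fold change 1.29, SE 0.22, adjusted p = 0.00112 by edgeR's quasi-likelihood test). *Bcl2*, which blocks mitochondrial apoptosis, had 2.36, 3.09 and 2.52 CPM against 4.17, 5.04 and 5.18 CPM (log2 fold change 0.85, adjusted p = 0.0101) and narrowly lost its call without control replicates 1 (adjusted p = 0.0605) or 3 (adjusted p = 0.0564) or AclyM-KO replicate 3 (adjusted p = 0.0543). *Cdkn2a*, which encodes the cell cycle inhibitors p16 and p19ARF and was named among the largest increases, had 5, 2 and 3 counts in control and 11, 20 and 14 counts in AclyM-KO libraries (log2 fold change 2.09, SE 0.48, adjusted p = 0.00967), and lost its call without control replicates 2 (adjusted p = 0.0636) or 3 (adjusted p = 0.0548).

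Genes of uptake at the cell surface formed a group that was put together after the values were seen, so that its members are described without a test of the group. *Tfrc*, the transferrin receptor, had 258, 266 and 247 CPM in the control libraries and 434, 528 and 470 CPM in the AclyM-KO libraries, without overlap (log2 fold change 0.89, SE 0.07, adjusted p = 2.07e-07 by edgeR's quasi-likelihood test). *Lrp8*, a receptor for apolipoprotein E and reelin, had 1.9, 2.3 and 2.14 CPM against 5.98, 6.19 and 5.48 CPM (log2 fold change 1.47, SE 0.19, adjusted p = 7.73e-05). *Cd320*, the receptor for vitamin B12 bound to transcobalamin, had 0.989, 0.863 and 0.993 CPM against 1.89, 2.56 and 2.29 CPM (log2 fold change 1.25, adjusted p = 0.0102), with an adjusted p of 0.0536 without control replicate 2. *Scarb1*, the HDL receptor, was the changed gene among 27 phagocytic, scavenger and efferocytosis receptors tested. It had 55.6, 59.7 and 58.8 CPM against 91.4, 98.5 and 103 CPM (log2 fold change 0.75, adjusted p = 1.69e-06), at the fold threshold, and fell under it without control replicate 1 (0.72) or AclyM-KO replicate 2 (0.75) or 3 (0.71).

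Transport and detoxification genes stood among the largest fold changes at low levels. *Gsta3*, a glutathione transferase, was the changed gene among 26 NRF2 targets and redox genes. It had 0.228, 0.288 and 0.153 CPM in control and 0.944, 1.14 and 1.41 CPM in AclyM-KO libraries, or 3, 4 and 2 counts against 12, 17 and 19 (log2 fold change 2.33, SE 0.47, adjusted p = 0.00399 by edgeR's quasi-likelihood test). At an adjusted p-value alone 10 of the 26 genes were higher and 3 lower, against 7.13% and 4.78% of all genes tested, with a median of 0.11. The higher ones became 6 without control replicate 1 or 2 or AclyM-KO replicate 3, and the lower ones 1 without control replicate 2 or AclyM-KO replicate 3 and 5 without AclyM-KO replicate 1. *Abcc2*, an export pump for glutathione conjugates, had 0.609, 0.288 and 0.84 CPM against 1.26, 2.35 and 3.04 CPM (log2 fold change 1.94, SE 0.41, adjusted p = 0.00549). *Nox1*, an NADPH oxidase gene named after its values were seen, had 7.38, 7.76 and 5.96 CPM against 11.6, 17.3 and 16.6 CPM (log2 fold change 1.11, SE 0.16, adjusted p = 0.000247). It overlaps *Xkrx* on the same strand.

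Among 28 genes of the citrate cycle, itaconate and acetyl-CoA supply, *Acss2* and *Pcx* were changed, both higher. *Acss2*, which makes acetyl-CoA from acetate and belongs to the lists set aside, had a log2 fold change of 1.55. Its antisense gene *Acss2os* had 1.45, 0.791 and 0.688 CPM against 3.15, 4.51 and 3.7 CPM (log2 fold change 1.96, SE 0.29, adjusted p = 0.000324 by edgeR's quasi-likelihood test), and since the strand setting of the counting is not given, reads of the 2 genes cannot be told apart. *Pcx*, pyruvate carboxylase, which makes oxaloacetate for the citrate cycle, had 1.9, 1.94 and 1.76 CPM against 3.62, 4.91 and 4.81 CPM (log2 fold change 1.25, SE 0.22, adjusted p = 0.00123). It overlaps *Lrfn4* on the other strand.

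A further group put together after the values were seen holds adhesion, synaptic and neuropeptide genes known from neurons. *L1cam*, an adhesion molecule that leukocytes also carry, had 4.64, 3.95 and 3.36 CPM in control and 9.05, 13.1 and 10.4 CPM in AclyM-KO libraries (log2 fold change 1.45, SE 0.18, adjusted p = 3.95e-05 by edgeR's quasi-likelihood test). *Nptxr*, the neuronal pentraxin receptor, had 2.36, 1.73 and 1.76 CPM against 6.06, 6.32 and 6.37 CPM (log2 fold change 1.68, SE 0.20, adjusted p = 2.43e-05). *Flrt3*, a leucine-rich repeat adhesion protein, had 1.06, 1.37 and 0.993 CPM against 4.56, 3.5 and 3.33 CPM (log2 fold change 1.72, SE 0.26, adjusted p = 0.000347). All 3 were apart between the groups. *L1cam* overlaps *Arhgap4* and *Nptxr* overlaps *Npcd* on the same strand, and *Flrt3* lies within *Macrod2* on the other strand, so that reads could belong to either. *Npcd* had a log2 fold change of 0.87 and *Macrod2* one of 1.12, and both, looked up for this overlap, were changed. *Ptprn*, a protein of dense-core vesicles that the rule on the largest increases names, had 0.38, 0.431 and 0.535 CPM against 1.97, 1.82 and 0.814 CPM (log2 fold change 1.75, adjusted p = 0.0137) and lost its call without any 1 of the 3 controls (adjusted p = 0.053 to 0.0711). The direction was mixed in this group: *Kif1a*, *Camk2b*, *Ppp1r9a* and *Elfn1* were lower. *Camk2b* lost its call without AclyM-KO replicate 1 (-0.66), *Kif1a* without control replicate 1 or 2, and *Elfn1* without any 1 of the 6 libraries.

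Among the largest increases the naming rule also gave *Piwil2*, *Myo6* and *Plb1*, with log2 fold changes of 1.56, 1.62 and 1.56. *Piwil2*, of the Piwi family of small RNA-binding proteins, had 0.684, 0.431 and 0.688 CPM against 1.97, 1.82 and 1.55 CPM, and an adjusted p of 0.0505 without control replicate 2. *Myo6* lost its call without control replicate 1 or 3 or AclyM-KO replicate 2 or 3 (adjusted p = 0.0634 to 0.127), and *Plb1* without any 1 control or AclyM-KO replicate 3 (adjusted p = 0.0872 to 0.23). *Spn*, which encodes the leukocyte sialoglycoprotein CD43 and was named after its values were seen, had 11.9, 9.99 and 11.5 CPM against 22.7, 36.4 and 29.9 CPM (log2 fold change 1.42, SE 0.16, adjusted p = 8.5e-05 by edgeR's quasi-likelihood test).

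The lower genes were fewer and held receptors and signalling proteins of myeloid cells. *S1pr1*, the receptor for sphingosine 1-phosphate that guides leukocyte exit from tissues, was the decrease with the smallest p-value outside the lists set aside. It had 19.4, 20.2 and 18.9 CPM in the control libraries and 8.1, 8.81 and 8.36 CPM in the AclyM-KO libraries, with little spread within either group (log2 fold change -1.21, SE 0.11, adjusted p = 1.69e-06 by edgeR's quasi-likelihood test). *Itga9*, the alpha subunit of an integrin for tenascin and osteopontin, had 17, 16.8 and 17 CPM against 8.81, 6.46 and 7.03 CPM (log2 fold change -1.19, SE 0.13, adjusted p = 1.25e-05). Both genes kept their call without any 1 library.

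*Cd38*, an enzyme that breaks down NAD, had 39.4, 33.4 and 34.8 CPM against 20.2, 13.4 and 16.9 CPM (log2 fold change -1.10, SE 0.12, adjusted p = 3.77e-05 by edgeR's quasi-likelihood test). *Fgr*, a Src family kinase of myeloid cells, had 8.97, 8.84 and 8.1 CPM against 4.41, 2.49 and 4.88 CPM (log2 fold change -1.15, SE 0.20, adjusted p = 0.00112). *Lbp*, which encodes the LPS-binding protein that hands LPS to CD14, had 4.41, 3.95 and 4.89 CPM against 1.5, 1.48 and 2 CPM (log2 fold change -1.41, SE 0.22, adjusted p = 0.000553). In each of these genes the control and AclyM-KO libraries stood apart. *Cd14* itself had 1427, 1384 and 1346 CPM against 1291, 1193 and 1278 CPM and was not changed. *Mefv*, which encodes the inflammasome sensor pyrin and was named after its values were seen, had 45.9, 40.4 and 42 CPM against 27.9, 17.6 and 22.9 CPM (log2 fold change -0.91, SE 0.13, adjusted p = 0.000665).

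**Figure D4:**
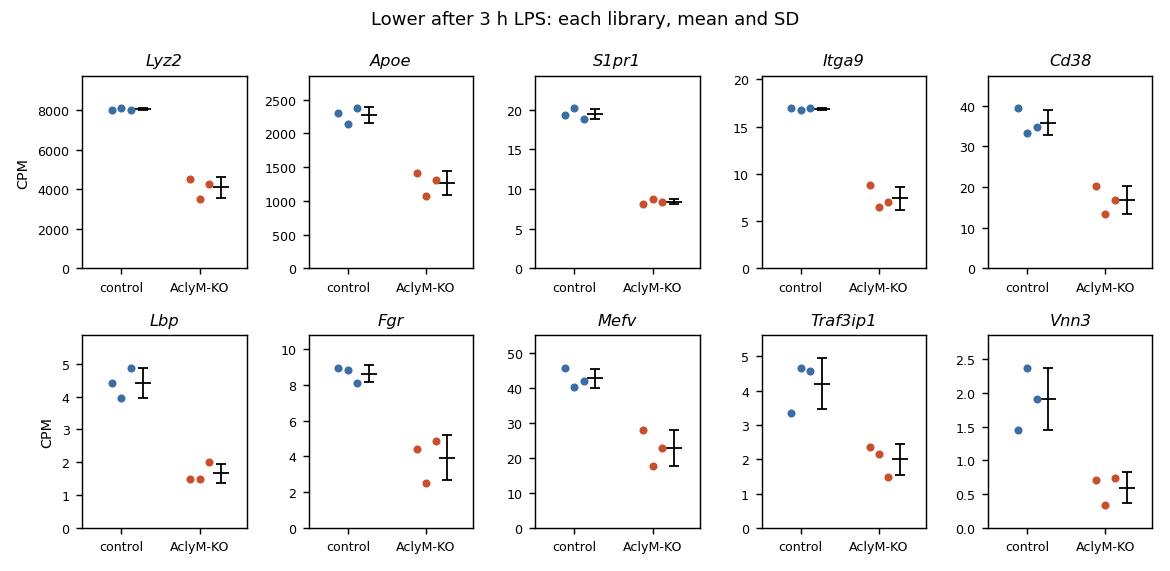
CPM of 10 genes that were lower in AclyM-KO macrophages after 3 h LPS, with 1 point per library (control blue, AclyM-KO red) and the mean and SD of each group (black). The 3 AclyM-KO points lie below the 3 control points in every panel, for *S1pr1* with 18.9 to 20.2 CPM in control and 8.1 to 8.81 CPM in AclyM-KO libraries. Most of these genes were chosen by a rule that required this separation, which is therefore no result.

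*Gpr35*, a receptor for tryptophan metabolites, was with *S1pr1* the lower gene among 30 chemokine and other G protein-coupled receptors tested. It had 3.27, 0.935 and 2.21 CPM against 0.944, 0.404 and 0.592 CPM, so that control replicate 2 lay just under the highest AclyM-KO library (log2 fold change -1.73, adjusted p = 0.0231). Its call was lost without control replicates 1 (adjusted p = 0.141) or 3 (adjusted p = 0.102) or AclyM-KO replicate 3 (adjusted p = 0.0999). *Vnn3*, of the vanin family of pantetheinases, which release pantothenate from coenzyme A breakdown products, had 1.45, 2.37 and 1.91 CPM against 0.708, 0.336 and 0.74 CPM (log2 fold change -1.69, SE 0.37, adjusted p = 0.00685), and an adjusted p of 0.0534 without control replicate 2. *Rhou*, a small GTPase, was the changed gene among 31 of cytoskeleton and migration, with 23.8, 24.4 and 24.2 CPM against 16.4, 12.6 and 12.9 CPM (log2 fold change -0.79, adjusted p = 0.000134), and was under the fold threshold without AclyM-KO replicate 2 (-0.72) or 3 (-0.74). *Tnfrsf9*, one of the LPS-induced genes set aside, was the changed gene of the TNF receptor superfamily, at -1.37.

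Genes of lipid handling outside synthesis moved in both directions, and *Scarb1* and *Lrp8* are given above among the higher ones. *Apoe*, the apolipoprotein that carries cholesterol out of macrophages, had 2298, 2140 and 2372 CPM in the control libraries and 1412, 1071 and 1313 CPM in the AclyM-KO libraries (log2 fold change -0.84, SE 0.09, adjusted p = 0.000127 by edgeR's quasi-likelihood test), and -0.74 without AclyM-KO replicate 2, just within the fold threshold. It was the changed gene among 18 LXR targets and sterol efflux genes. Of the others, 6 were lower at an adjusted p-value under 0.05, among them the cholesterol exporters *Abcg1* (250, 241 and 245 CPM against 145, 171 and 145 CPM, log2 fold change -0.67) and *Abca1* (708, 773 and 808 CPM against 611, 465 and 476 CPM, log2 fold change -0.56), and *Lpcat3* was higher (0.30). Over all genes tested, 4.78% were lower and 7.13% higher at that adjusted p-value. The 7 lower genes of the list, *Apoe* included, became 4 without control replicate 1 or 2 or AclyM-KO replicate 3. None of the list was higher without control replicate 2 or 3 or AclyM-KO replicate 3. *Hilpda*, an inhibitor of triglyceride breakdown in lipid droplets, had 8.29, 11.4 and 9.55 CPM against 5.27, 5.65 and 5.03 CPM (log2 fold change -0.87, SE 0.16, adjusted p = 0.00144), and -0.75 without control replicate 2. It was the changed gene among 23 of fatty acid oxidation and PPAR targets.

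Among the lower genes were *Traf3ip1*, *Tmem231*, *Bbs2* and *Kif9*, which are known from cilia and were put together because they were lower, so that their common direction is no result. *Traf3ip1*, a subunit of the intraflagellar transport complex, had 3.35, 4.67 and 4.58 CPM against 2.36, 2.15 and 1.48 CPM (log2 fold change -1.07, SE 0.24, adjusted p = 0.00682 by edgeR's quasi-likelihood test) and kept its call without any 1 library. *Tmem231* (-1.01) and *Bbs2* (-0.79) lost theirs without any 1 control or AclyM-KO replicate 2 or 3 (adjusted p = 0.0581 to 0.107 and 0.0819 to 0.145), and *Kif9* (-0.95) without any 1 control or AclyM-KO replicate 3 (adjusted p = 0.0676 to 0.13).

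The rule also named *Prorp*, *Fam217b*, *Arhgef18*, *Homez*, *Zbtb12*, *Kif1a*, *Helq* and *Elfn1* among the largest decreases, at log2 fold changes of -1.10 to -1.29 and low levels. *Arhgef18*, an activator of RhoA, had 3.8, 3.81 and 3.82 CPM against 1.73, 1.61 and 1.92 CPM (SE 0.22, adjusted p = 0.00306 by edgeR's quasi-likelihood test). *Prorp* lost its call without control replicate 1 (adjusted p = 0.0506), *Fam217b* without control replicate 2 (0.0982) or AclyM-KO replicate 3 (0.0691), and *Kif1a* without control replicate 1 (0.066) or 2 (0.0727). *Homez* lost its call without control replicate 2 or 3 or AclyM-KO replicate 3 (adjusted p = 0.0933 to 0.105), *Zbtb12* without these or AclyM-KO replicate 1 (0.0549 to 0.0988), and *Helq* and *Elfn1* without any 1 of the 6 libraries. *Rps25*, *Tpt1* and the pseudogene *Rpl14-ps1*, also lower and named after their values were seen, share sequence with other copies in the genome. *Tpt1* lost its call without control replicate 2 (adjusted p = 0.0537) and *Rpl14-ps1* without control replicate 3 (adjusted p = 0.0739) or AclyM-KO replicate 1 (-0.71). *Gapdh*, which has many such copies, was listed at 1.68 to 3.74 CPM, and reads of these genes could have been split or dropped.

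Interferon-inducible GTPases, which attack the vacuoles of intracellular microbes, formed the list with the lowest median. No gene of the 18 tested was changed by the fold threshold, but 17 had a negative fold change, 10 were lower at an adjusted p-value under 0.05 and none was higher. For 11 the AclyM-KO libraries all lay below the controls. Over all genes tested, 14.8% lay below the controls in this way, 4.78% were lower at the adjusted p-value and 49.8% had a positive fold change. Genes of this family are close paralogs in clusters, and reads shared between them could have been counted for either.

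*Gbp8* came closest to the fold threshold, with 14.6, 12.3 and 13.1 CPM in the control libraries and 8.34, 8.21 and 7.4 CPM in the AclyM-KO libraries (log2 fold change -0.74, SE 0.13, adjusted p = 0.0011 by edgeR's quasi-likelihood test). It passed that threshold without control replicate 2 or 3 or AclyM-KO replicate 1 or 2. *Tgtp2* had 123, 117 and 139 CPM against 86.4, 82.2 and 83.3 CPM (log2 fold change -0.59), and *Gbp6* 196, 184 and 190 CPM against 140, 125 and 128 CPM (-0.54). *Iigp1*, Irga6, had -0.50 and *Gbp5* -0.30. By contrast *Gbp2* had 1838, 1741 and 1894 CPM against 1822, 1852 and 1790 CPM (log2 fold change -0.0023), and the log2 fold changes of *Gbp7*, *Irgm1* and *Irgm2* were 0.01, -0.06 and -0.04. Without AclyM-KO replicate 3, 7 genes of the list were lower at the adjusted p-value and without AclyM-KO replicate 2, 11 were.

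**Figure D5:**
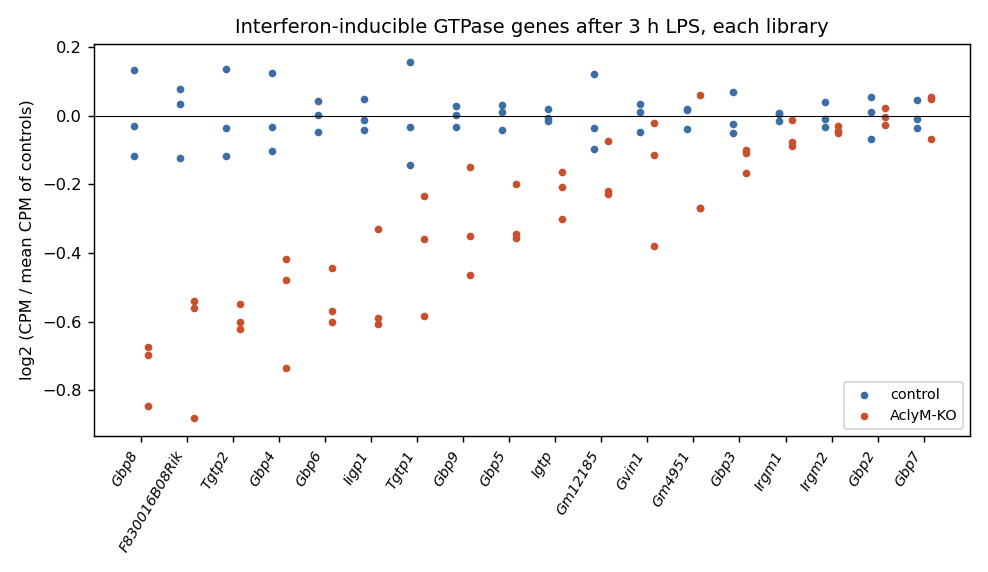
Log2 of the CPM in each library over the mean CPM of the 3 controls (vertical axis) for the 18 interferon-inducible GTPase genes tested, ordered by fold change, with control libraries in blue and AclyM-KO libraries in red. The AclyM-KO points lie below all control points for the first 10 genes and for *Gbp3*, and among the control points for genes such as *Gbp2* and *Gbp7*.

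The wider type I interferon response held no changed gene. Of the 31 genes tested, 22 had a negative fold change, where 49.8% of all genes tested had a positive one. At an adjusted p-value under 0.05, 5 were lower and 1 was higher, against 4.78% and 7.13% of all genes tested. Without AclyM-KO replicate 2, 14 were lower and 3 higher, and without control replicate 1 or 3 or AclyM-KO replicate 3, 3 were lower. None was higher without control replicate 2 or 3, and 2 were without AclyM-KO replicate 1 or 3. *Ifi205* (814, 801 and 861 CPM against 578, 591 and 570 CPM, log2 fold change -0.51, adjusted p = 4.82e-06 by edgeR's quasi-likelihood test) and *Isg15* (451, 417 and 424 CPM against 320, 310 and 335 CPM, log2 fold change -0.42, adjusted p = 8.7e-05) had the largest of these differences, while *Irf7*, the transcription factor that amplifies the response, was on the higher side (382, 334 and 349 CPM against 418, 538 and 417 CPM, log2 fold change 0.37, adjusted p = 0.0288). *Ifnb1*, the ligand that starts this response and a member of the cytokine list set aside, was higher, with 3.35, 2.66 and 3.13 CPM against 6.06, 12.6 and 6.74 CPM.

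Complement genes also held no changed member among 17 tested. The 3 chains of C1q were lower at the adjusted p-value, with log2 fold changes of -0.54 for *C1qa*, -0.27 for *C1qb* and -0.20 for *C1qc*, as was the regulator *Cr1l* (-0.28), and *C5ar1*, the receptor for C5a, was higher (0.20). The shares of all genes tested were 4.78% lower and 7.13% higher. The 4 lower genes of the list became 2 without control replicate 3. None of the list was higher without any 1 control or AclyM-KO replicate 3, against 2 without AclyM-KO replicate 1. *C1qa* had 168, 153 and 168 CPM in control and 116, 105 and 114 CPM in AclyM-KO libraries (SE 0.06, adjusted p = 2.43e-05 by edgeR's quasi-likelihood test).

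Central carbon metabolism showed small differences in both directions and no gene past the fold threshold among 28 genes of glycolysis and the pentose phosphate pathway. At the adjusted p-value 8 were higher, including *Tkt* (0.43), *Pgd* (0.29) and *G6pdx* (0.21) of the pentose phosphate pathway and *Aldoc* (0.54), and 3 were lower, *Hk2* (-0.46), *Slc16a3* (-0.31) and *Tpi1* (-0.24). Of all genes tested, 7.13% were higher and 4.78% lower at that p-value. The lower genes of the list became 1 without any 1 control or AclyM-KO replicate 3. Without AclyM-KO replicate 1, 1 gene of the list was changed, lower. *Hk2*, the LPS-induced hexokinase, had 323, 340 and 311 CPM against 257, 220 and 229 CPM (SE 0.06, adjusted p = 0.000133 by edgeR's quasi-likelihood test), and *Hk3* had 602, 609 and 554 CPM against 724, 803 and 720 CPM (log2 fold change 0.35, adjusted p = 0.000853). Of 24 respiratory chain subunits, 1 was lower at the adjusted p-value and none higher, with a median of -0.02. None was lower without any 1 control, and without AclyM-KO replicate 1 none was lower and 3 were higher. Of 24 histone acetylation enzymes and readers, none passed edgeR's adjusted p-value in either direction, and none did with DESeq2 or limma-voom, while 5 had an unadjusted p-value under 0.05, with log2 fold changes from -0.43 to 0.51 and a median of -0.06. Of all 11296 genes tested, 2955 had an unadjusted p-value under 0.05. Without AclyM-KO replicate 1, 4 of the 24 histone acetylation genes were lower at the adjusted p-value.

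Antigen presentation and co-stimulation (23 tested), pattern recognition receptors and adaptors (25), the unfolded protein and heat shock response (19), hypoxia-inducible genes (10) and TGF-beta, Notch and Wnt signalling (16) held no changed gene. Exceptions were 1 higher gene of the unfolded protein and heat shock list without control replicate 2 or AclyM-KO replicate 2, and 1 of the TGF-beta, Notch and Wnt list without control replicate 1 or AclyM-KO replicate 2 or 3. At an unadjusted p-value under 0.05 the lists held 11, 12, 5, 2 and 9 genes, where 2955 of all 11296 genes tested had one. At an adjusted p-value under 0.05, in the same order, 1, 1, 3, 1 and 5 were higher and 2, 4, 0, 0 and 2 lower. The shares over all genes tested were 7.13% and 4.78%. The 5 higher genes of the TGF-beta, Notch and Wnt list became 1 without control replicate 2 or 3. The 3 of the unfolded protein list became 0 without control replicate 3 or AclyM-KO replicate 3. Of 14 genes of prostaglandin and leukotriene metabolism, *Ptgs2*, which belongs to the LPS-induced genes set aside, was changed, with 328, 278 and 308 CPM against 570, 501 and 534 CPM (log2 fold change 0.81). Without control replicate 2 its fold change was 0.75, just under the threshold.

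Genes near the floxed *Acly* and the *Lyz2* locus were counted as well. Within 10 Mb of *Acly*, 201 genes were tested, and 2 of them (0.995%), *Itgb3* and *Acsf2*, were changed. *Itgb3* lost its call without AclyM-KO replicate 2 (0.65), and *Acsf2* without control replicate 2 (-0.75) or AclyM-KO replicate 3 (-0.74), just within the fold threshold. Within 10 Mb of *Lyz2* (chromosome 10, 117277331 to 117282321), 63 were tested and 1 (1.59%), *Phlda1*, was changed. The share of all genes tested was 1.72%. Both groups were Acly fl/fl, so that the window around *Acly* does not set floxed against unfloxed DNA. With 2 and 1 changed genes, the shares are too coarse to be compared with that of all genes.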

How the data were processed

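RNA of LPS-stimulated BMDMs was sequenced from KAPA HyperPrep mRNA libraries. The authors converted base calls with CASAVA 1.8.2, aligned reads to mm10 with STAR 2.5.2b and deposited raw counts per RefSeq transcript from HOMER, and the strand and isoform settings of the counting are not given in the sources used here. Of 35745 rows, 35628 were matched to a symbol through RefSeq and GENCODE. The 117 others held 0.931% of counts and were kept under their RefSeq transcript name. A row of this kind was among the lower genes. One row was kept for each of 24562 symbols or transcript names, with 59.53% of all counts. Counts on other transcripts of a gene are therefore not included.

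The 3 control and 3 AclyM-KO libraries of 3 h LPS were compared with edgeR 4.0.16 in R 4.3.3 (filterByExpr, TMM factors, robust quasi-likelihood test, Benjamini-Hochberg adjustment over 11296 genes), and the code was checked on simulated counts. Genes were named by a rule: changed genes outside the lists set aside, without overlap between groups, with a mean of at least 1 CPM in a group and an ordinary symbol, of which the 15 largest increases, the 15 largest decreases and the 3 lowest p-values in each direction were taken, plus all changed list members and *Acly*. The members and lists were chosen with earlier results of these data known, and other genes are examples picked after their values were seen. Alternatives were DESeq2 1.42.0, limma-voom (limma 3.58.1), upper-quartile scaling, other filters, all 13 libraries, a replicate block, a test against the fold threshold and leaving out each library. No 2 libraries were duplicates, the chi-square per degree of freedom between replicates being 2.741 to 11.919. Promoters came from RefSeq (GRCm38.p6) and exon 9 from GENCODE vM21.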

Additional observations from a re-analysis of the deposited data

How the results depend on the processing

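Against the 143 higher and 51 lower genes, requiring the fold change itself to exceed 0.75 (glmTreat) left 29 and 2, and a log2 fold change beyond 1 left 93 and 23. DESeq2 called 96 and 27, sharing 119 genes with the 194, and gave no adjusted p-value (NA) for 73 of them. A fit over all 13 libraries called 182 and 77. Changed members of the function lists numbered 33, with 6 under glmTreat and 19 at a log2 fold change beyond 1. Leaving out each library in turn gave 105 to 209 higher genes (most without AclyM-KO replicate 1, fewest without control replicate 3), 36 to 73 lower genes, 27 to 44 changed list members, and an *Acly* log2 fold change of -1.41 to -1.27. The fewer calls under glmTreat and the larger fold follow from their stricter rule, and the cause was not tested for all 13 libraries. None of the 59 genes named by the rule besides *Acly* changed direction in the refits with another tool, scaling, filter or set of libraries that gave it a value. These genes were chosen as changed, nearly all with groups that did not overlap, so that their unchanged direction is no support. Of these 59, 55 kept their call with limma-voom and 41 without control replicate 2, and with DESeq2 31 of the 32 with an adjusted p-value did.

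Replicate numbers did not pair the libraries: deviations of same-numbered libraries correlated at 0.0234, 0.0489 and -0.00524. With a replicate block, 141 genes were higher and 48 lower, 35 list members were changed, and *Acly* had -1.34. With 3 libraries per group, genes at a few counts carried wide errors, and a difference not called there was not detectable at this depth.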
